A study of Mus musculus with 33 samples.

Results

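The alpha and beta tubulin isotypes were described here across single heart cells of the mouse. The members are the 10 rows of the count table whose gene symbol is Tuba1a, Tuba1b, Tuba1c, Tuba4a, Tuba8, Tubb2a, Tubb2b, Tubb4b, Tubb5 or Tubb6, out of 14862 rows. They make up 5 alpha and 5 beta genes, and no measured value was used to choose them.

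Alpha and beta tubulin pair into the heterodimer that polymerises into microtubules. Several genes encode each partner. Many isotypes differ mainly in the acidic tail at the end of the protein, where enzymes add or remove tyrosine and glutamate. In a dividing cell microtubules form the mitotic spindle and the midzone that guides cytokinesis. In heart muscle cells they also form a lattice between the myofibrils, and detyrosinated microtubules there are known to resist contraction.

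The cells came from enzymatically dissociated ventricles of transgenic mice carrying mAG-hGem, a fusion of the green fluorescent protein Azami Green with geminin that belongs to the FUCCI cell cycle reporter and accumulates from S phase to mitosis. They were sorted one by one by fluorescence, and each cell's mRNA was copied by antisense RNA amplification before a TruSeq library was made. Per the labels' protocols, a cell was accepted as a cardiomyocyte when PCR on its cDNA found the troponin gene Tnnt2 and did not find Pdgfrb. The 4 groups were 10 mAG-hGem positive and 11 negative cells at embryonic day 14.5 (E14.5), and 6 positive and 6 negative cells at postnatal day 5 (P5), all from reporter mice. The strain, the promoter that drives the reporter, and the number of animals are not given in the sources used here. Cells are called by their titles, in which G and N stand before the number of positive and negative E14.5 cells, and P and N do so after L1 or L2 at P5. Because no animal is named, each group counts as 1 sample. Differences are therefore given as ratios without a test, and their 95% intervals cover counting error only.

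Total counts ran from 2.54 to 38.5 M per cell, where 1 M is 1000000 counts, with a median of 12.8 M. Values are in counts per 1000000 (CPM), and the value of a group is its summed counts over its summed total. In 26 cells the summed cardiomyocyte markers (11 of 11 listed genes in the table) exceeded the sum of every other marker list. The other 7 were all 6 P5 negative cells and the P5 positive cell L2P12. Endothelial markers led in L2N4, L2N7, L2N9 and L2P12, fibroblast and mural markers in L2N12 (19402 CPM), and red blood cell markers (7 of 10 listed genes in the table) in L1N3 (228022 CPM) and L2N10 (63398 CPM). In the P5 negative cells the cardiomyocyte sum ran from 0.415 to 3285 CPM and the endothelial sum (6 of 6 listed genes) from 298 to 13051 CPM. L2P12 had 86.3 CPM of cardiomyocyte and 2605 CPM of endothelial markers. The endothelial sum was at most 8.69 CPM in an E14.5 positive and 26.1 CPM in an E14.5 negative cell, with Cdh5, Emcn and Tie1 at 0, 77 reads of Pecam1 and 3 of Tek in positive cells, and 327 reads of Kdr in negative ones. The G2/M marker sum (20 of 20 genes) was 1012 to 13410 CPM in E14.5 positive cells and 2.67 to 2468 CPM in E14.5 negative ones. It was 29.4 CPM in the P5 positive cell L2P10 and at least 11014 CPM in the other 5, so L2P10 lay far below the rest of its sorted group. The E14.5 negative cell N10 also had 5041 CPM of fibroblast and mural markers (7 of 8 genes in the table), the most of any E14.5 cell, and no tubulin ratio named below changed its side of 2-fold without it.

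The ends of the coding sequences are where many, but not all, of the isotype proteins differ most. The last 60 coding bases, stop codon left out, are given for 5 members from GENCODE M21 (GRCm38), with the last codon in capitals.
Tuba4a: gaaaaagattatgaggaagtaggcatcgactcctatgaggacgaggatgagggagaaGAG
Tuba8: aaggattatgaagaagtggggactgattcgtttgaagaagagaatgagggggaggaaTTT
Tubb2a: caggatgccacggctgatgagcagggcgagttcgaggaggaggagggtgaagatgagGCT
Tubb4b: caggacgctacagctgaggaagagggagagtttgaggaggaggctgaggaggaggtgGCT
Tubb5: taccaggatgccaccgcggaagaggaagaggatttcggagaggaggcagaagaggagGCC
The tails were compared base by base from their ends with no gap, so a shift by a codon can lower the match. Counted so, Tubb2a and Tubb4b are identical at 45 of 60 bases, Tubb4b and Tubb5 at 35, and Tuba4a and Tuba8 at 24. Tuba1a and Tuba1b, whose ends are not shown, are identical at 59 of 60 bases. No shifted alignment was made, so these values do not rank how far the tails differ. Tuba4a is known for being made without the final tyrosine that most alpha isotypes carry, and its last codon here is GAG. That of Tuba8, a minor isotype found in heart and skeletal muscle, is TTT.

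The likeness of the isotypes bears on the counts, since reads that fit several genes cannot be placed. Of the 50-base stretches of its transcript, 16.9% were found in no other gene for Tuba1b, 24.5% for Tuba1a and 39.0% for Tuba1c. The values were 44.5% for Tubb4b, 50.4% for Tubb2a, 51.2% for Tuba4a and 60.7% for Tubb2b. Tuba8 reached 85.3%, Tubb5 99.9% and Tubb6 100%. Tuba1b shared most with Tuba1c (59.3% of its stretches), and Tubb4b with its pseudogene Tubb4b-ps1 (43.6%). Both strands were searched, so Tuba4a shared most with Stk16 (47.7%) and Tuba8 with Gm15856 (14.5%). These genes overlap them on the opposite strand, so that sharing is of the locus and not likeness between isotypes. How the authors treated reads that fit several genes is not given in the sources used here. The split between Tuba1a, Tuba1b and Tuba1c is therefore uncertain, as is that between Tubb2a and Tubb2b. Levels set side by side between isotypes, such as Tubb5 against Tubb4b or alpha against beta, carry the same uncertainty.

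Tuba1a, Tuba1b and Tuba1c lie within 106.677 kb on chromosome 15 of GRCm38 (Tuba1b at 98931429 to 98934390, Tuba1a at 98949847 to 98953501, both on the minus strand, and Tuba1c at 99029891 to 99038105 on the plus strand). Tubb2a (34074278 to 34078008) and Tubb2b (34127008 to 34130354) are minus-strand neighbours on chromosome 13. Tuba4a lies at 75214972 to 75221261 on chromosome 1, minus strand, where the plus-strand gene Stk16 overlaps it. Tuba8 is on chromosome 6, Tubb4b on chromosome 2 and Tubb5 on chromosome 17. The authors' build is mm10 per the submitters' processing notes, the same assembly under another name.

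The 250 bases before the annotated start were taken from RefSeq (GRCm38.p6) for 8 members, all but Tubb2b and Tubb6. They are shown for 4 isotypes that were higher in mAG-hGem positive than negative cells at both ages and, for contrast, for Tuba1a. Capitals mark CCAAT on either strand (ATTGG where it lies on the opposite strand) and, in Tubb4b, TTTGAA, the core of the cell cycle genes homology region.
Tubb4b: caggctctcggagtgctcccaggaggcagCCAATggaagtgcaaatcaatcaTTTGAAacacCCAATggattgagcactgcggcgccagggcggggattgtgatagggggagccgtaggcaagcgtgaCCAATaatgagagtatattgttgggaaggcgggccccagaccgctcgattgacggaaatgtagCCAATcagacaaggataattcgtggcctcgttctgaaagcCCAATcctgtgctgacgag
Tubb5: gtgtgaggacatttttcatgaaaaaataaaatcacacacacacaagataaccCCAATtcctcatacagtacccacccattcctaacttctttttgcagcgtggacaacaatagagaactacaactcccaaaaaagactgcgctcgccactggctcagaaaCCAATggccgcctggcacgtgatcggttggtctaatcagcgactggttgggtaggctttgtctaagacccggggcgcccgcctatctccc
Tuba1c: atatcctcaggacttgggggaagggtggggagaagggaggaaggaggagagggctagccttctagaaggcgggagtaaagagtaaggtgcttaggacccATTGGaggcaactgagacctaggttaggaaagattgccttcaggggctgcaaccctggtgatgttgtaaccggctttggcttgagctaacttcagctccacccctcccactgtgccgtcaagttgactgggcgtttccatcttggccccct
Tuba1b: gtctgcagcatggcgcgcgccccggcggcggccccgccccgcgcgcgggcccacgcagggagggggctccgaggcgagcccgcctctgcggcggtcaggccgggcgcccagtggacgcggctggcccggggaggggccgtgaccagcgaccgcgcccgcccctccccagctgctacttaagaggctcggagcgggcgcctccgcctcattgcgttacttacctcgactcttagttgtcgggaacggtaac
Tuba1a: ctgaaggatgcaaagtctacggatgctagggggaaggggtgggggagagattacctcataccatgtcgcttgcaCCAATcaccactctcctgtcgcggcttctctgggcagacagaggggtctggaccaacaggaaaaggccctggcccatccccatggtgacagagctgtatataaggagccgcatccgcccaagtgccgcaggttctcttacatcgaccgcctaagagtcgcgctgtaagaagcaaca
The windows lie at chr2:25224703-25224952 for Tubb4b, chr17:35838302-35838551 for Tubb5, chr15:99029641-99029890 for Tuba1c, chr15:98934391-98934640 for Tuba1b and chr15:98953502-98953751 for Tuba1a. All but that of Tuba1c are on the minus strand. Tubb4b held 5 CCAAT motifs and 1 TTTGAA, and Tubb5 held 2 CCAAT motifs. Tuba1a and Tuba1c held 1 each, and Tuba1b, Tuba4a, Tuba8 and Tubb2a none. The Tuba4a window (chr1:75219295-75219544) lies inside the span of the gene given above, before an internal start. Over 32851 such windows, 33.8% held a CCAAT on either strand, 0.840% held at least 4, and 5.55% held CCAAT and TTTGAA together. None of the marked motifs overlaps another. TATAAA, which 12.4% of windows held, was found in Tubb2a alone, and the CArG box (1.47% of windows) and the MEF2 site (0.508%) in none of the 8. A match describes letters only.

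Among E14.5 cells, the summed counts of the 10 isotypes were higher in mAG-hGem positive than in negative cells, with Tuba1b, Tuba1c, Tubb4b, Tubb5 and Tubb6 at least 2-fold higher. Tuba1a, the most abundant alpha isotype of the negative cells, was level between both groups. Per cell, the tubulin sum ran from 4016 (G2) through a median of 11157 to 28706 CPM (G25) in positive cells. In negative cells it ran from 1050 (N3) through 5860 to 9875 CPM (N23). Of the positive cells, all but G2 and G6 lay above the negative median, but the groups overlapped. The group values were 16225 and 6568 CPM, a ratio of 2.47-fold (log2 1.30, exact binomial interval 1.30 to 1.31). Of 9 isotypes with at least 10 CPM in the higher group, 5 were at least 2-fold higher in positive cells and 0 were at least 2-fold lower. Over the 7311 genes with that level, 16.2% were at least 2-fold higher and 22.3% at least 2-fold lower. The median log2 ratio was 1.63 over the 9 isotypes and -0.14 over all these genes.

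**Figure D1:**
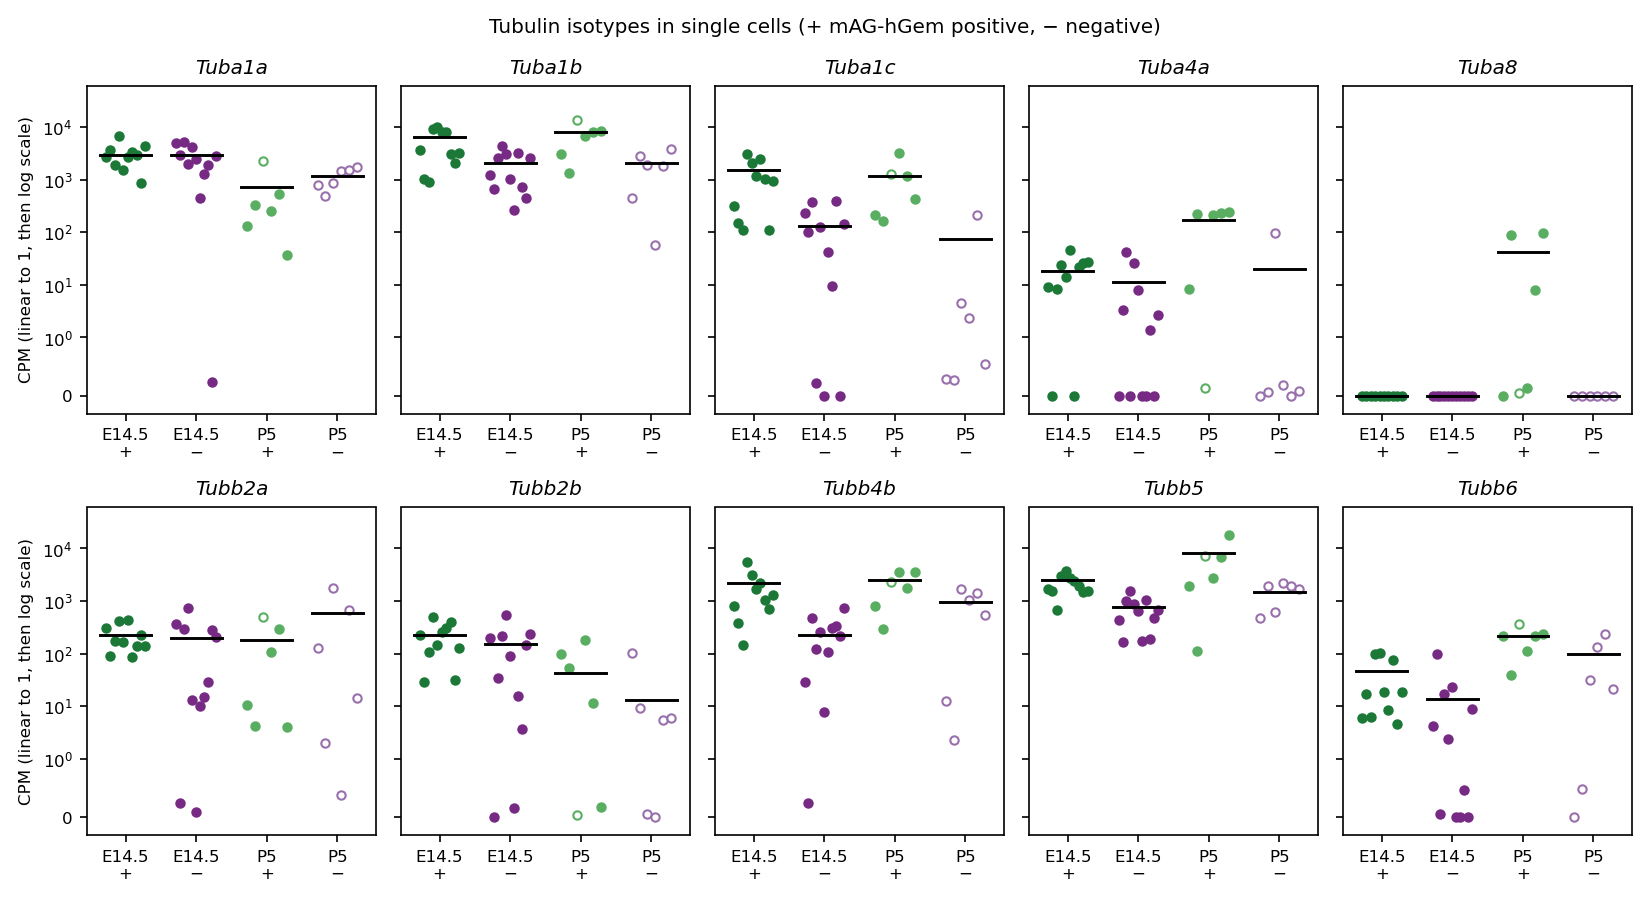
CPM of each isotype (vertical axis, linear up to 1 and logarithmic above) in every cell of the 4 groups (+ mAG-hGem positive, − negative). Each point is a cell, filled where cardiomyocyte markers led and open where another marker list did, and the bar is the group value. Tuba1a lies at a like level in both E14.5 groups and lower in the filled P5 positive points, while Tuba8 has reads in P5 positive cells alone.

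The alpha isotypes differed from each other in this comparison. Tuba1a ran from 872 (G6) through 2791 to 6698 CPM (G25) in positive cells and from 0.239 (N7) through 2410 to 5078 CPM (N23) in negative ones. The ranges overlapped widely, and the group values of 2987 and 2958 CPM gave a log2 ratio of 0.01 (0.01 to 0.02). Tuba1b, an isotype of nearly all cells, ran from 912 (G2) through 3491 to 9850 CPM (G27) in positive cells. In negative cells it ran from 266 (N3) through 1244 to 4279 CPM (N24). The 4 positive cells with title numbers from 21 to 30 lay above every negative cell, and the others were mixed with them. Tuba1b was 3.10-fold higher in positive cells (log2 1.63, 1.63 to 1.64).

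Tuba1c, over both ranges of title numbers, showed the widest gap of the alpha genes. Its positive cells ran from 108 (G6) through 980 to 3105 CPM (G25). Its negative cells ran from 0 through 103 to 396 CPM (N5), with no read in N7 and N28. The group values were 1501 and 134 CPM, 11.2-fold apart (log2 3.49, 3.47 to 3.51). Tuba4a was low in both groups (18.7 CPM with the reporter, 11.4 CPM without), and its log2 ratio of 0.71 was 1.70 without the negative cell N23 and 3.68 for the median cell. No read of Tuba8 was counted in any of the 21 E14.5 cells, which allows up to 0.0190 CPM in the positive and 0.0153 CPM in the negative group.

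Tubb4b, a beta isotype of most tissues and of cilia, showed the widest gap of the beta genes over both ranges of title numbers. It ran from 148 (G2) through 1184 to 5595 CPM (G25) in positive and from 0.241 (N21) through 215 to 737 CPM (N8) in negative cells. The group values of 2195 and 226 CPM were 9.71-fold apart (log2 3.28, 3.26 to 3.29). Tubb5, the main beta isotype of proliferating cells in many tissues, ran from 672 (G2) through 1819 to 3730 CPM (G27) in positive cells. In negative cells it ran from 164 (N21) through 641 to 1565 CPM (N24). Apart from G2 and N24, every positive cell lay above every negative cell, and the ratio was 3.25-fold (log2 1.70, 1.69 to 1.71).

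The remaining beta genes were lower in level. Tubb6 was 3.48-fold higher in positive cells (47.2 against 13.6 CPM), and its log2 ratio was 1.13 without G27 and 2.58 without N21. Tubb2a and Tubb2b, isotypes best known from neurons, differed by less than 2-fold. Tubb2a had 227 and 197 CPM, and its log2 ratio of 0.21 was 0.87 without N24. For the median cell it was 2.55, past 2-fold. Tubb2b had 223 and 153 CPM, and its log2 ratio of 0.54 was 1.05 for the median cell and 1.14 without N25, the cell with its highest value of 554 CPM. The neuron and Schwann cell marker sum (4 of 6 listed genes in the table) was at most 57.5 CPM in a positive and 129 CPM in a negative E14.5 cell, and its part in these values was not tested.

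The number in the cell's title separated the E14.5 positive cells too. The 6 positive cells numbered 1 to 10 had tubulin sums of 4016 to 11749 CPM, and the 4 numbered 21 to 30 had 16971 to 28706 CPM. Total counts and G2/M markers moved with this number: the positive cells had 8.40 to 12.8 M counts in the first range and 16.8 to 38.5 M in the second. Their G2/M sum was 1012 to 11606 CPM in the first range and 10603 to 13410 CPM in the second. What the numbers stand for is not given in the sources used here, and number, depth and G2/M level cannot be told apart here.

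Within each range the positive cells still had more tubulin, by 1.63-fold among numbers 1 to 10 and by 2.91-fold among numbers 21 to 30. Tubb5 was about as far apart in both ranges, at 3.59-fold and 3.39-fold. Tuba1c was 2.55-fold and 18.7-fold higher in positive cells, and Tubb4b 2.75-fold and 14.9-fold, so their size rested mainly on the second range. Tubb6 was 6.44-fold and 3.50-fold higher, the widest gap of the beta genes in the first range. Tuba1b was 1.95-fold and 3.64-fold higher, under 2-fold in the first. Tuba1a was level in both, at log2 ratios of 0.11 and -0.01. Tuba4a was 18.6-fold higher in the first range (15.9 against 0.853 CPM) and 1.30-fold in the second. In each range 5 isotypes were at least 2-fold higher and 0 lower, with Tuba4a in the first taking the place of Tuba1b in the second.

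**Figure D2:**
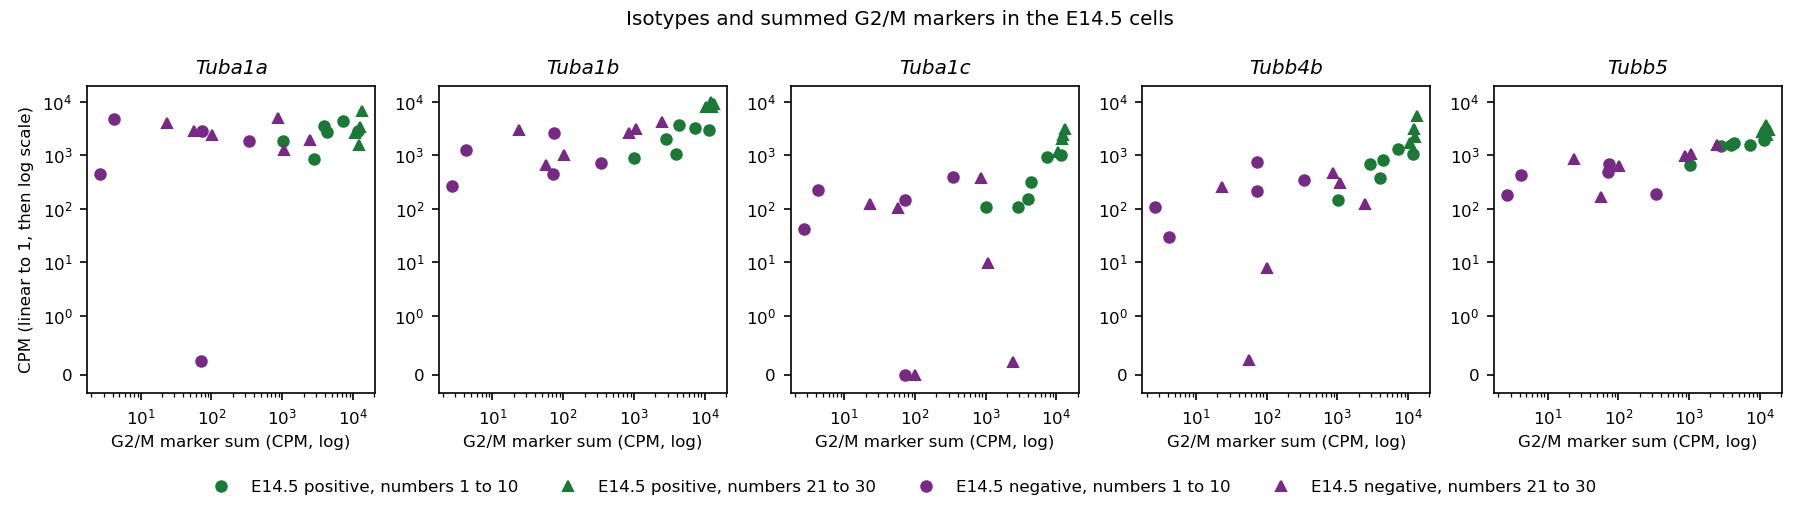
CPM of 5 isotypes (vertical axis, linear up to 1 and logarithmic above) against the summed CPM of 20 G2/M markers (logarithmic axis) in the 21 E14.5 cells, with circles for title numbers 1 to 10 and triangles for 21 to 30. Tubb5 climbs with the G2/M sum in both number ranges. Tuba1a follows it less closely, with a Spearman's rho of 0.18 over the 21 cells and 0.40 among numbers 1 to 10.

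The isotypes also differed in how they followed the cell cycle markers from cell to cell. Over the 21 E14.5 cells, Spearman's rho with the G2/M sum was 0.93 for Tubb5, 0.85 for Tubb4b, 0.79 for Tuba1b and 0.69 for Tuba1c. It was 0.18 for Tuba1a, 0.33 for Tubb2a and 0.40 for Tubb2b. These points mix both sort groups and both title ranges, so the values are a description. Among numbers 1 to 10 (11 cells) rho was 0.92 for Tubb5, 0.85 for Tubb4b, 0.74 for Tuba1b and 0.67 for Tuba1c. Among numbers 21 to 30 (10 cells) it was 0.90, 0.84, 0.89 and 0.71 in the same order. There total counts had a rho of -0.01 with the G2/M sum.

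Inside the sort groups the picture was uneven. In the 10 positive cells rho with the G2/M sum was 0.98 for Tuba1c, 0.94 for Tubb4b, 0.90 for Tubb5 and 0.87 for Tuba1b. It was 0.83 for Tubb2b, 0.71 for Tubb6, 0.44 for Tuba1a, 0.09 for Tuba4a and -0.05 for Tubb2a. However, total counts and the G2/M sum had a rho of 0.77 there. In the 11 negative cells rho with the G2/M sum was 0.70 for Tubb5, 0.59 for Tuba1b and 0.42 for Tubb4b. It was 0.04 for Tubb2b and -0.10 for Tuba1c. Tubb5 was thus the isotype with a rho of at least 0.70 in each of these sets. The alpha and beta sums followed each other, with a rho of 0.80 over 21 cells, 0.94 in the positive and 0.62 in the negative cells.

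The genes whose level was most like the tubulin sum over the 21 E14.5 cells, among 3143 genes with a mean of at least 50 CPM, were Rangap1 (rho 0.86), Cks2 (0.83), Rbmx (0.83), Birc5 (0.82) and Hmgn1 (0.81). Rangap1 is the GTPase activator of Ran, Cks2 binds cyclin-dependent kinases, and Birc5 (survivin) belongs to the chromosomal passenger complex and to the G2/M list itself. Cks2 had 521 CPM in positive and 30.6 CPM in negative E14.5 cells, and Rangap1 had 169 CPM in the positive ones. Within the positive cells rho was 0.77 for Rangap1, 0.93 for Cks2, 0.87 for Rbmx, 0.84 for Birc5 and 0.88 for Hmgn1. Within the negative cells rho was 0.87, 0.75, 0.73, 0.53 and 0.73 in the same order.

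Between E14.5 and P5, 6 of the 10 isotypes were at least 2-fold apart in mAG-hGem positive cells, while summed tubulin was 1.33-fold apart. Tuba1a and Tubb2b were lower at P5, and Tubb5, Tubb6, Tuba4a and Tuba8 were higher. The tubulin sums of the P5 positive cells were 6494 (L1P5), 2629 (L2P10), 27269 (L2P12), 17079 (L2P3), 19237 (L2P7) and 30755 CPM (L2P8). They spanned the whole E14.5 range, and the group value of 21569 CPM was 1.33-fold that at E14.5 (log2 0.41, 0.41 to 0.41). All 10 isotypes could be counted: 4 were at least 2-fold higher at P5 and 2 at least 2-fold lower. Over 7809 genes, 32.2% were at least 2-fold higher and 32.5% at least 2-fold lower, so a difference of this size was common in this comparison. The medians were 0.25 for the isotypes and -0.07 for all genes.

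**Figure D3:**
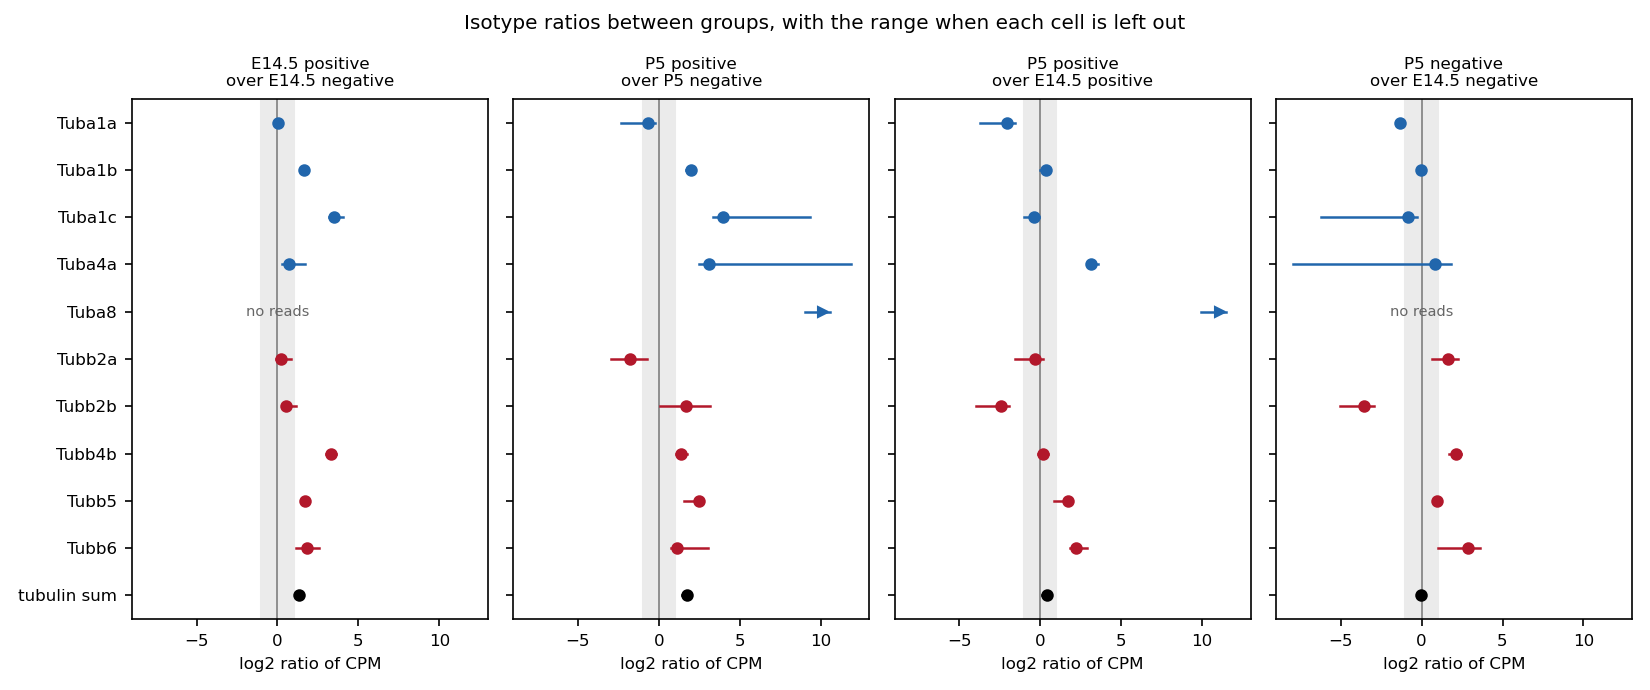
Log2 ratio of group CPM for each isotype and for their sum in the 4 comparisons (alpha in blue, beta in red, sum in black). Lines span the values obtained when each cell is left out in turn, arrowheads are lower bounds, and grey marks less than 2-fold. Tuba1a sits at 0 between the E14.5 groups and at -2.04 between the positive groups, and the long lines of Tuba1c and Tuba4a show that single P5 negative cells set those ratios.

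Tuba1a gave the clearest gap with age. The P5 positive cells had 129 (L1P5), 336 (L2P10), 252 (L2P3), 522 (L2P7) and 36.2 CPM (L2P8), and L2P12, led by endothelial markers, had 2257 CPM. The 5 cells led by cardiomyocyte markers all lay below the lowest E14.5 positive cell (872 CPM), and L2P12 lay inside the E14.5 range. The group ratio was 4.13-fold lower at P5 (log2 -2.04, -2.06 to -2.03) and 13.1-fold lower without L2P12 (log2 -3.71). Tuba1a was the isotype of which every cardiomyocyte-led P5 positive cell lay below every E14.5 positive cell, which held for 1.87% of the 7809 genes. No isotype had every such cell above, as 1.24% of genes did. Over all cells of both groups 0 isotypes separated, where 1.1% of genes did below and 0.397% above.

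Tuba1b was the main alpha transcript of the P5 positive cells and was under 2-fold apart with age by summed counts. Its 6 cells ran from 1310 (L2P10) through 7412 to 13370 CPM (L2P12), against a median of 3491 CPM at E14.5. The log2 ratio was 0.33 (0.33 to 0.34), 1.09 for the median cell, past 2-fold, and 0.00 without L2P12. Tuba1c ran from 163 (L2P10) through 800 to 3173 CPM (L2P3) and overlapped the E14.5 range. Its log2 ratio was -0.38, and -0.99 without L2P3.

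Tuba4a was low at E14.5 and higher in 4 of the P5 positive cells. It had 209 (L2P3), 234 (L2P7), 243 (L2P8) and 226 CPM (L2P10) in those, 8.25 CPM in L1P5 and 0.133 CPM in L2P12, against at most 45.5 CPM (G28) at E14.5. L1P5 had the fewest counts, 2.54 M. The group ratio was 8.99-fold (log2 3.17, 3.11 to 3.23), and 11.9-fold without L2P12. Stk16, a kinase gene that overlaps Tuba4a on the other strand, was at 74.7 CPM in the P5 positive and 52.1 CPM in the E14.5 positive group. It had 0.459 (L2P3), 16.5 (L2P10), 59.3 (L2P7) and 128 CPM (L2P8) in the 4 cells with Tuba4a above 200 CPM. The part of Stk16 in the Tuba4a counts was not tested. Whether the counting used strand is not given in the sources used here.

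Tuba8 was found in P5 positive cells alone. It had 96.7 CPM in L2P8, 88.9 CPM in L2P10 and 8.14 CPM in L2P7, at most 0.131 CPM in L2P3 and L2P12, and no read in L1P5. The 2 cells with most of it, L2P8 and L2P10, were also the cells with the highest cardiomyocyte marker sums, 87996 and 65331 CPM. L2P10 had the low G2/M sum given above. Against a floor of 3 counts over the E14.5 positive group, the P5 group value of 41.3 CPM was 2178-fold higher (log2 11.09). The exact binomial interval began at log2 10.79, and the lowest of the alternative settings named below gave 7.77. Without L2P8 the log2 ratio against the floor was 9.94, and without L2P12 11.49. After thinning to the same depth, which left out L1P5, 5 of 5 P5 positive cells and 0 of 9 cells in each E14.5 group had a read. Before thinning L2P3 had 2 reads and L2P12 had 1, so whether they kept a read rested on 1 random draw. Of the 6 P5 positive cells, 2 reached 10 CPM.

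Per kb of coding length Tubb5 was the highest of the beta genes in the P5 positive group, at 6281 CPM. Its P5 positive cells had 1938 (L1P5), 112 (L2P10), 7218 (L2P12), 2769 (L2P3), 6891 (L2P7) and 17702 CPM (L2P8). L2P8, L2P7 and L2P12 lay above every E14.5 cell, L1P5 and L2P3 within the positive range, and L2P10 below every E14.5 positive cell. The ratio was 3.33-fold (log2 1.74, 1.73 to 1.74), and without L2P8 the log2 ratio was 0.86, under 2-fold. Tubb6, which is induced in regenerating muscle, ran from 39.5 (L2P10) through 215 to 373 CPM (L2P12) against 4.61 to 101 CPM at E14.5. All P5 positive cells but L2P10 lay above every E14.5 positive cell. The log2 ratio was 2.21 (2.17 to 2.25) and 2.87 without G27.

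Tubb4b was nearly level, with 2482 CPM at P5 and 2195 CPM at E14.5 (log2 0.18). Tubb2b had 99.4 (L1P5), 53.9 (L2P10), 186 (L2P3), 11.7 (L2P7), 0.187 (L2P8) and 0.0444 CPM (L2P12), against a median of 188 CPM at E14.5. It was 5.26-fold lower at P5 (log2 -2.39, -2.44 to -2.35), and its log2 ratio was -3.99 without L2P3. Tubb2a was under 2-fold apart at a log2 ratio of -0.34, but -1.51 for the median cell and -1.53 without L2P12, which held 66.8% of the P5 group's reads. Without L2P12 the counts became 4 isotypes higher and 3 lower. The neuron and Schwann cell markers had no read in any P5 cell, and their part in the lower Tuba1a and Tubb2b was not tested.

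At P5, mAG-hGem positive cells had 3.30-fold the tubulin of negative cells, but none of the negative cells was led by cardiomyocyte markers, so reporter state and cell type cannot be told apart. The sums of the negative cells were 1946 (L1N3), 5210 (L2N10), 7012 (L2N12), 4905 (L2N4), 7821 (L2N7) and 7948 CPM (L2N9). L2P10 and L1P5 lay among them and the other 4 positive cells above them all. For 0 of the isotypes did every positive cell lie above every negative one or below it, as 1.94% and 0.181% of genes did. The log2 ratio was 1.72 (1.72 to 1.73). Of 10 isotypes, 8 were at least 2-fold higher in positive cells and 1 at least 2-fold lower. Over 8304 genes these shares were 30.4% and 38.9%, with a median log2 ratio of -0.38, against 1.84 for the isotypes.

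Tuba1b (log2 1.99), Tubb5 (2.46) and Tubb4b (1.35) were higher in the P5 positive cells, Tubb5 by 1.58 without L2P8. The lower gene was Tubb2a (log2 -1.75), of which L2N12, the cell led by fibroblast and mural markers, had 1785 CPM. Its log2 ratio was -0.27 for the median cell, -0.76 without L2N12 and -2.94 without L2P12. Tuba1c was 15.5-fold higher, yet L2N7 held 98.4% of the reads of the negative group, and the log2 ratio of 3.96 was 9.31 without that cell and 3.34 without L2P3. Likewise L2N12 held 99.8% of the negative group's Tuba4a, whose log2 ratio was 3.08 with it and 11.85 without it, and 2.47 without L2N7. Tuba8 was at least 1143-fold higher, and the bound on its log2 ratio of 10.16 was 9.01 without L2P8 and 9.55 without L2N7; the negative group's 0 reads allow up to 0.0362 CPM. Tuba1a was under 2-fold apart (log2 -0.69), but 5.11-fold lower in positive cells without L2P12, where the counts were 7 isotypes higher and 2 lower.

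Tubb6 and Tubb2b depended on single cells as well. Tubb6 was 2.22-fold higher in positive cells, with a log2 ratio of 1.15 that was 3.02 without L2N7. It was under 2-fold without L2P12 (0.77), L2N9 (0.99), L2N10 (0.88) or L2N12 (0.92). Tubb2b was 3.21-fold higher, with a log2 ratio of 1.68 that was 0.09 without L2P3 and 3.16 without L1N3. The titles begin with L1 in 1 positive and 1 negative P5 cell and with L2 in the rest. Within L2, with 5 cells in each group, the tubulin sum was 3.16-fold higher in positive cells (log2 1.66), and the counts were again 8 isotypes higher and 1 lower. Within L1 there is 1 cell on each side.

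The negative cells of both ages held about the same amount of tubulin, 6568 CPM at E14.5 and 6537 CPM at P5 (log2 -0.01). Here too age and cell type cannot be told apart. Of 9 isotypes, 3 were at least 2-fold higher at P5 and 2 at least 2-fold lower, beside 36.8% and 34.2% of 8410 genes. The medians were 0.81 for the isotypes and 0.14 for all genes. The higher ones were Tubb2a (log2 1.62), Tubb4b (2.11) and Tubb6 (2.85), and the lower ones Tuba1a (-1.34) and Tubb2b (-3.54). The log2 ratio of Tubb2a was 0.62 without L2N12 and 2.28 without N24, and that of Tubb6 was 0.99 without L2N7 and 3.63 without N21. Tuba4a, under 2-fold apart at 0.81, was at -7.97 without L2N12, 1.79 without N23 and 1.41 without L2N7, and Tuba1c, at -0.85, was -6.20 without L2N7. Tubb5, just under 2-fold at 0.97, was 1.49 for the median cell and 1.21 with DESeq2 factors. Tubb2b was -5.01 without L1N3 and -2.94 without N25.

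**Figure D4:**
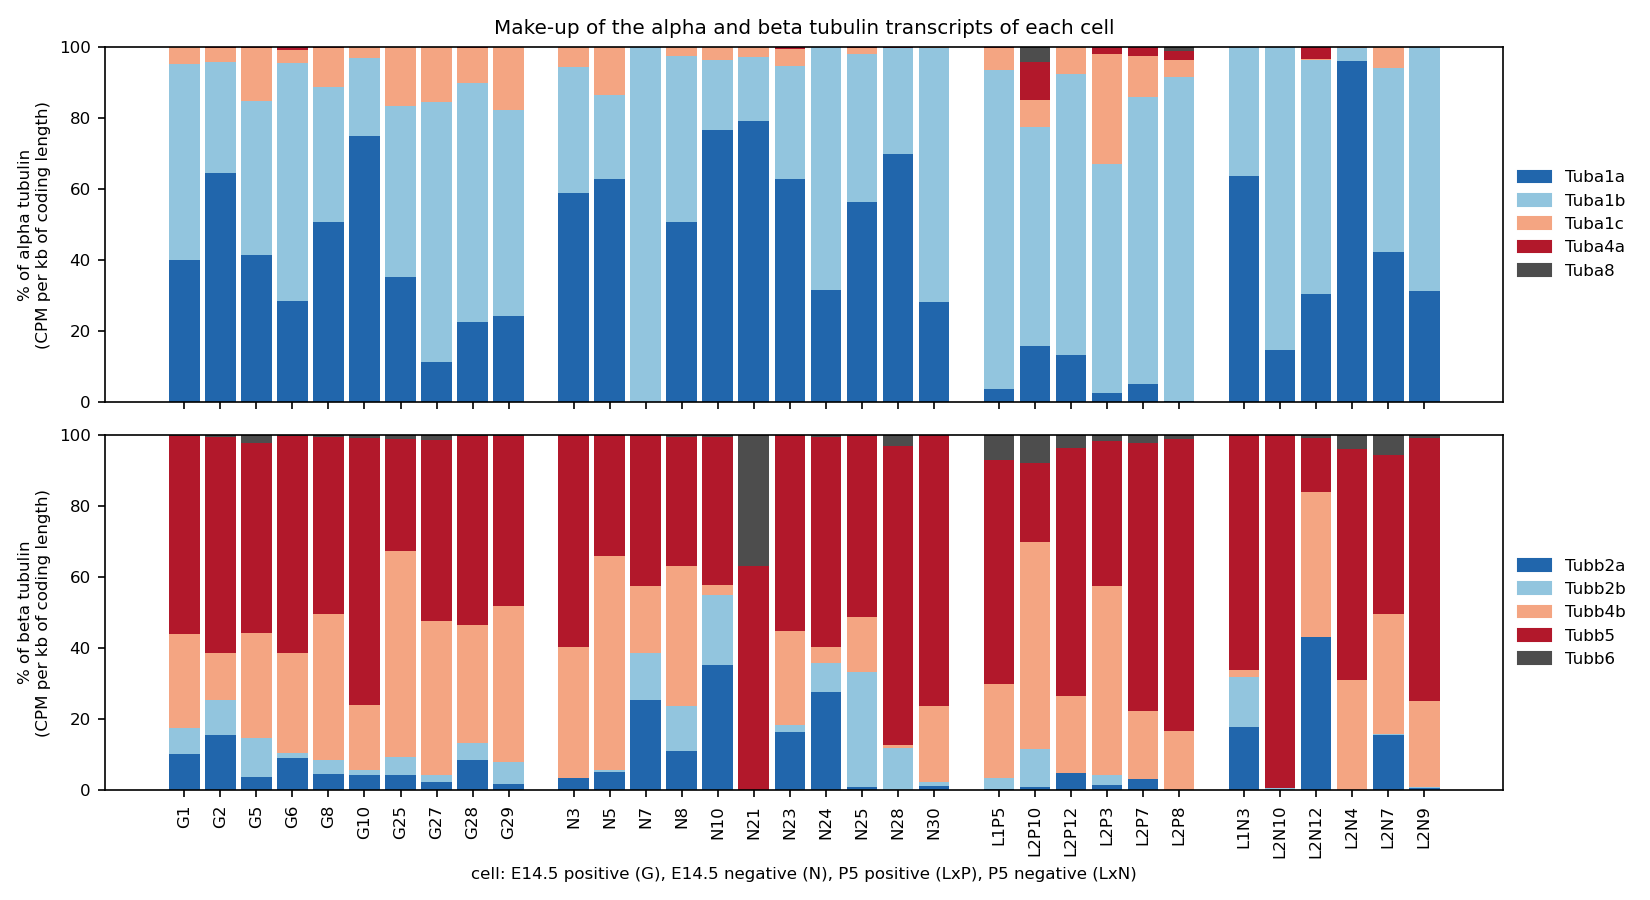
Percent of the alpha (top) and beta (bottom) tubulin of each cell that each isotype made up, from CPM per kb of coding length. Each bar is a cell, E14.5 before P5 and positive before negative. Tuba1a (dark blue, top) takes up to 79.0% in E14.5 negative cells and at most 15.8% in P5 positive cells, where Tuba1b (light blue) leads in all 6.

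To compare isotypes with each other, CPM were divided by the coding length, which was 1332 to 1353 bases for all members. Tuba1a made up 56.8% of alpha tubulin in E14.5 negative, 27.1% in E14.5 positive, 7.04% in P5 positive and 35.1% in P5 negative cells. Tuba1b made up 40.4%, 59.1%, 79.6% and 62.1% in the same order. Counted by cell, Tuba1a led in 8 of 11 E14.5 negative and 3 of 10 E14.5 positive cells, and in no P5 positive cell. Single cells varied widely: the Tuba1a share ran from 0.0531% (N7) to 79.0% (N21) among E14.5 negative cells. It ran from 11.4% (G27) to 74.9% (G10) among E14.5 positive cells, and from 0.391% (L2P8) to 15.8% (L2P10) among P5 positive cells. Tuba1c made up 13.7% and 11.3% of alpha tubulin in the positive groups of E14.5 and P5, and 2.58% and 2.25% in the negative ones. The P5 positive share of Tuba1a was 2.81% without L2P12 and that of Tuba1c 7.37% without L2P3, and the P5 negative share of Tuba1c was 0.0568% without L2N7.

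Tubb5 led the beta genes at E14.5 in 9 of 10 positive and 9 of 11 negative cells, and at P5 in 4 of 6 positive and 5 of 6 negative cells. Its share of the groups was 48.3%, 56.8%, 74.2% and 47.3% in that order. Tubb4b followed with 42.1%, 16.6%, 21.95% and 30.4%. Of the 50-base stretches of Tubb4b, 44.5% were found in no other gene, against 99.9% for Tubb5. How shared reads were counted is not given, so the order of these 2 genes is uncertain where their shares are close. Per kb of whole transcript the order of both turned in the E14.5 positive group, with 53.0% for Tubb4b and 36.6% for Tubb5, and in the P5 negative group, with 37.7% and 35.3%, since the Tubb5 transcript is longer. Tuba4a and Tuba8 stayed minor even where they were highest, at 10.7% and 4.20% of alpha tubulin in L2P10.

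The ratio of summed alpha to summed beta CPM per kb was 2.09 in E14.5 positive and 3.76 in E14.5 negative cells. It was 0.898 in P5 positive cells, 1.48 without L2P8, and 1.02 in P5 negative cells. Per cell it ran from 1.21 to 2.76, from 0.392 to 13.8, from 0.424 to 4.16 and from 0.437 to 2.43 in the same order. L2P8, at 0.424, was the one P5 positive cell under 1, the other 5 having at least 1.09. The E14.5 positive cells spanned the narrowest range, and all groups overlapped. Alpha and beta genes share stretches to unlike degrees, so the ratio may also depend on how shared reads were counted.

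Other genes of the tubulin pathway are given by list, and their shares stand beside the same background percentages. Of the 10 other tubulin genes listed, 7 had a row in the table. Gamma tubulin Tubg1, which nucleates microtubules, was 6.94-fold higher in the positive group of P5 (56.5 CPM) than in that of E14.5 (8.15 CPM). Delta tubulin Tubd1, a gene of the centriole, had 3.75 CPM in the positive group of E14.5 and 41.9 CPM in that of P5. Its log2 ratio of P5 over E14.5 was 3.48, and 4.54 without G25. Epsilon tubulin Tube1 had 36.7 CPM with and 3.10 CPM without the reporter at E14.5, and 14.3 CPM with it at P5, where the negative cells had no read. Between the E14.5 groups its log2 ratio was 3.57, and 11.05 without N25. The Tube1 reads at P5 came almost all from L2P12, without which the log2 ratio between the positive groups was -7.51 in place of -1.36. The alpha and beta genes Tuba3b, Tubal3 and Tubb4a had at most 2 reads in a group.

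The genes that fold tubulin differed little between the E14.5 groups. Of the chaperonin CCT genes, which fold newly made tubulin, 8 could be counted between the E14.5 groups. Of these, 0 were at least 2-fold apart, beside 16.2% of all genes higher and 22.3% lower. The median log2 ratio of the 8 was -0.03. Between the positive groups 1 of 8 was higher at P5 (Tcp1, 190 against 74.7 CPM) and 1 lower (Cct6a, 1.58 against 15.8 CPM). Over all genes these shares were 32.2% and 32.5%. The log2 ratio of Cct6a was -3.32, and -2.15 without G29. Cct3 and Cct7 followed at log2 ratios of 0.95 and 0.68, and Cct4 and Cct8 were level at 0.02 and -0.14. Of 6 prefoldin genes, 0 were at least 2-fold apart between the E14.5 groups, beside 16.2% of all genes higher and 22.3% lower. Between the positive groups Pfdn1 (log2 1.14) and Pfdn6 (1.79) were higher at P5, and Pfdn2 (-2.08) and Pfdn4 (-1.98) lower, beside 32.2% and 32.5% of all genes. Without L2P8 Pfdn1 was at 0.79 and Pfdn6 at 0.54, both under 2-fold.

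Of 7 folding cofactors of the heterodimer, 4 could be counted between the positive groups. Tbca, which holds beta tubulin, had 2476 and 1684 CPM in the positive and negative groups of E14.5, but 471 and 309 CPM in those of P5. Tbcb, which binds alpha tubulin, had 66.6 and 43.5 CPM at E14.5 and 222 and 181 CPM at P5. Between the positive groups 2 cofactors were at least 2-fold higher at P5 (Tbcb and Arl2) and 1 lower (Tbca), beside 32.2% and 32.5% of all genes. Arl2, a small GTPase of the cofactor complex, had a log2 ratio of 1.68, but -0.02 without L2P8, and Tbcc had 0.88, but -0.24 without it. Ttc5, the factor that reads the nascent tubulin chain and triggers decay of its mRNA, was under 2 CPM in all groups but P5 negative, which had 12.2 CPM.

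Among the genes of the tyrosine cycle, Vash2, a carboxypeptidase that removes the final tyrosine, had 126 and 75.8 CPM in the positive and negative groups of E14.5, and 9.35 and 0.0121 CPM in those of P5. Its partner Svbp had 19.5 and 33.2 CPM at E14.5 and 53.4 and 131 CPM at P5. Ttl, the ligase that puts tyrosine back, had 24.2 and 21.01 CPM at E14.5 and 2.15 and 10.9 CPM at P5. Between the positive groups the log2 ratio was -3.76 for Vash2, and -7.71 without L2P10, and -3.49 for Ttl, and -10.72 without L2P12. The polyglutamylase Ttll1 (0.765 CPM at E14.5, 22.1 CPM at P5) and its partner Tpgs1 (3.67 and 32.8 CPM) were higher in P5 positive cells, with a log2 ratio of 4.85 for Ttll1 that was 3.21 without L2P8, and of 3.16 for Tpgs1 that was 4.42 without G27. Of 8 counted genes of tyrosine and glutamate modification, 3 were at least 2-fold higher and 3 lower in P5 positive than in E14.5 positive cells. Over all genes these shares were 32.2% and 32.5%. Between the E14.5 groups 2 of 6 were higher in positive cells, beside 16.2% of all genes. They were Agtpbp1 and Agbl2, which shorten glutamate chains, the first named after its value was seen. The log2 ratio of Agbl2 was 3.94, and 11.19 without N30. Of the acetylation genes only the deacetylase Sirt2 could be counted, with 31.7 CPM in the positive group of E14.5 and 29.8 CPM in that of P5 (log2 -0.09, and 1.04 without G27).

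Among the microtubule binding proteins, the 3 highest and 3 lowest ratios between the positive groups of P5 and E14.5 are named. Map7d3 (46.97 CPM) and Mapt (16.1 CPM), the latter known as tau, had reads at P5 and none in E14.5 positive cells. Map7d1, of the family that recruits kinesin, had 19.4 CPM at P5 and 2.88 CPM at E14.5 (log2 2.75, and 1.61 without L2P12). Map9, a spindle protein, had 7.87 and 105 CPM (log2 -3.74, and -1.55 without G5). Clip1, which tracks growing ends, had 2.68 and 31.1 CPM (log2 -3.54, and -6.06 without L2P7). Clasp2, which stabilises microtubules, had 15.1 and 51.4 CPM (log2 -1.76). Of 14 counted genes, 4 were higher and 5 lower at P5, beside 32.2% and 32.5% of all genes. Between the E14.5 groups 3 of 14 were higher and 2 lower in positive cells, beside 16.2% and 22.3%. Named beyond that rule and chosen after their values were seen, were Map4, the main microtubule-associated protein outside neurons, and Ckap5, the microtubule polymerase of the spindle. Map4 had 318 CPM at P5 and 86.5 CPM at E14.5 in positive cells (log2 1.88, and 1.12 without L2P12). Ckap5 had 151 and 28.9 CPM with and without the reporter at E14.5, and 186 and 28.1 CPM at P5, where its log2 ratio of 2.73 was 8.99 without L2N7.

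Stmn1 (stathmin), which holds free tubulin dimers, had 674 and 195 CPM in the positive and negative groups of E14.5 and 1206 and 345 CPM in those of P5, higher in positive cells at both ages. Fignl1, a relative of the severing enzyme fidgetin, had 531 and 65.9 CPM at E14.5, but 15.7 and 28.6 CPM at P5. Its log2 ratio between the E14.5 groups was 3.01, and 3.71 without N24. Katnal1 and Katna1, whose products sever microtubules, were lower in the positive group of P5. Katnal1 had 0.586 CPM at P5 and 35.0 CPM at E14.5 (log2 -5.90, and -5.14 without G6), and Katna1 12.4 and 34.1 CPM (log2 -1.46, and -2.16 without L1P5). Of the stathmin and severing genes, 2 of 6 were higher and 0 lower in positive E14.5 cells, beside 16.2% and 22.3% of all genes. Between the positive groups 1 of 7 was higher and 4 were lower at P5, beside 32.2% and 32.5%. Fign itself was level in both positive groups, at 19.1 and 18.7 CPM, though its log2 ratio was -3.07 without L2P8.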

How the data were processed

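Single-cell mRNA-seq libraries of 33 cells were analysed from 1 table of whole-number read counts per gene deposited by the authors (unit: counts, not normalized). Per the submitters' processing notes, CASAVA 1.8.2, STAR 2.4.0j, HTSeq 0.6.1p1 and the build mm10 were used. Their settings, and how reads that fit several genes or the strand were treated, are not given in the sources used here. Each cell's count was divided by its total and multiplied by 1000000 (CPM), and groups were summed. No animal is named, so each of the 4 groups is 1 sample and no test was made. Ratios carry exact binomial 95% intervals, and a value of 0 a floor of 3 counts over the group. Both cover counting error only, and amplified reads are not independent molecules. A gene counts as apart at 2-fold or more with at least 10 CPM in the higher group.

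Of the values above 0, 12.3% were 1 to 3 reads. The cells most alike, G1 and G2, had a correlation of 0.867 across genes, and no cell was counted as a copy. In the table, 22 gene names read as dates and were kept unnamed. Named were all members, of each companion list up to 3 genes with the highest and up to 3 with the lowest ratio between the positive groups, all other tubulins, and the 5 genes with the highest Spearman's rho with the tubulin sum. Some named genes and sequences are not reported here. The members and lists were chosen with earlier results of these data known. Alternatives were equal weights for cells, the median cell, edgeR 4.0.16 and DESeq2 1.42.0 scaling factors (R 4.3.3), totals without the 20 most abundant genes, cells thinned to 8671357 counts (6 shallower cells left out), and leaving out cells. Python 3.11.15 with numpy 2.4.6, pandas 2.3.3, scipy 1.17.1 and matplotlib 3.10.9 was used. On simulated data with 200 of 14862 genes altered between the positive groups of E14.5 and P5, 96% of ratios were recovered within 0.1 log2 and 95.5% of intervals held the true value. The altered genes had at least 10 CPM, and counts were Poisson draws with the same gene proportions in every cell of a group. The intervals assume the same counting error, so this checks the calculation only. It does not cover the spread between cells or from amplification.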

Additional observations from a re-analysis of the deposited data

Results flagged for a closer look

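In 37 combinations of 13 measures and the 3 groups of 6 to 10 cells, the highest or lowest cell was set against a gap limit. For independent, normally distributed values, 95% of small samples stay within that limit, and 1 in 20 would give 1.85. Single-cell CPM are skewed and the measures include sums of the members, so that rate need not hold here. The limit served only to pick cells to look at. A cell stood apart in 5. Tuba1a was 2257 CPM in the P5 positive cell L2P12, with 522 CPM in the next (L2P7), and L2P12 is the positive cell led by endothelial markers. In the P5 negative group Tuba1c was 214 CPM in L2N7, with 4.45 CPM in the next. Tuba4a was 97.9 CPM in L2N12, with 0.194 CPM in the next. Tubb2a was 1785 CPM in L2N12 as well, with 667 CPM in L2N7, and L2N12 is the negative cell led by fibroblast and mural markers. Tubb2b was 104 CPM in L1N3, with 9.46 CPM in the next, and L1N3 is led by red blood cell markers. The part of these marker levels in the 5 values was not tested.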

How the results depend on the processing

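The log2 ratio of summed tubulin, 0.41 between the positive groups (P5 over E14.5), was 0.36 with equal weights for cells, 0.70 for the median cell, 0.57 with edgeR factors, 0.79 with DESeq2 factors, 0.44 without the 20 most abundant genes in the totals, 0.42 after thinning and 0.28 without L2P12. Between the E14.5 groups, 1.30 became 1.23, 0.93, 1.34, 1.19, 1.32 and 1.11 under the first 6 of these, 0.71 within title numbers 1 to 10 and 1.54 within 21 to 30. Between the P5 groups, 1.72 became 1.57, 1.57, 1.86, 1.75, 1.82 and 1.47. Between the negative groups, -0.01 became 0.026, 0.0606, 0.050, 0.23, -0.068 and 0.0647. Leaving out each cell in turn gave 0.13 to 0.60, 1.17 to 1.44, 1.45 to 1.91 and -0.16 to 0.13 in the same order of comparisons. The number of isotypes at least 2-fold apart between the E14.5 groups, 5, was 8 for the median cell, and between the negative groups, 5 became 8 with equal weights and 8 after thinning. Leaving out single cells gave 5 to 7, 5 to 6, 7 to 9 and 5 to 7 isotypes. The cause of these differences was not tested. DESeq2 factors moved every log2 ratio between the positive groups by 0.38, between the negative groups by 0.24 and between the E14.5 groups by -0.12. The edgeR factors moved them by 0.16 between the positive groups and 0.14 between the P5 groups. Without the cells led by other markers no P5 negative cell was left, so those comparisons have no such value. Within L2 titles the P5 ratio was 1.66. Runs within L2 titles, without L2P12 or L2P10, of shares without each cell, and scaling by transcript length were chosen after seeing the data. No paired analysis was possible because each group is 1 sample and the labels do not say what the numbers and prefixes in the titles stand for, so they pair no cells. Depth limits low isotypes: a level under 10 CPM in single cells is not read as a difference between them.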
